A study of Mus musculus with 2 samples.

Results

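The cells described here are called the pericytes of the neonatal mouse testis, after the contractile cells that sit on the outer face of small vessels. They were picked by 4 transcripts, *Rgs5*, *Ndufa4l2*, *Cox4i2* and *Higd1b*, whose summed level had to reach 10 UMIs (unique molecular identifiers, each standing for 1 captured transcript) per 10,000 UMIs of the cell. The summed level of the endothelial transcripts *Pecam1*, *Cldn5* and *Flt1* had to stay under 5 and that of the germ cell transcripts *Ddx4* and *Dazl* under 2, while a limit of 10 each was set on the Sertoli transcripts *Clu*, *Amhr2*, *Rhox8* and *Cst9* and on the Leydig transcripts *Cyp17a1*, *Cyp11a1* and *Hsd3b1*. Of 13789 cells in which 750 or more genes were found and mitochondrial UMIs did not exceed 10%, 93 met these limits, 43 of 5077 in the control library and 50 of 8712 in the *Brca1* vKO library. No limit was set on smooth muscle transcripts, so vascular smooth muscle cells may be among the 93. The study sequenced single cells from whole testes at postnatal day (PD) 7 to follow germ cells after loss of BRCA1, a DNA repair protein. There was 1 library from a control mouse and 1 from a *Brca1* vKO mouse, in which 1 *Brca1* allele is floxed, the other is deleted, and Vasa-Cre deletes the floxed allele. Vasa-Cre acts in germ cells, so the pericytes of the *Brca1* vKO mouse kept the floxed allele and carried 1 deleted allele. A comparison of the genotypes is therefore a comparison of 1 mouse with another, and no test was made of it.

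Pericytes and vascular smooth muscle cells are together called mural cells. Endothelial cells recruit them with the growth factor PDGFB, which acts on the receptor PDGFRB, and Notch signals from the endothelium keep them in their differentiated state. They set the width of the vessel through calcium entry, potassium channels and the cGMP pathway that answers nitric oxide, and they share the basement membrane with the endothelium. In the testis the vessels run in the interstitium between the seminiferous tubules, whose own contractile layer, the peritubular myoid cells, shares most smooth muscle genes with mural cells.

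The libraries held 120568700 UMIs in 5812 barcodes (control) and 165062097 UMIs in 9456 barcodes (*Brca1* vKO), and the retained cells had median depths of 16917 and 12970.5 UMIs. Pericytes were shallower, with medians of 10085 UMIs (range 2274 to 29979) and 3672 genes in the control library and 7660.5 UMIs (2594 to 21319) and 2954 genes in the *Brca1* vKO library. Their summed UMIs came to 494851 and 427951. Of 21 barcodes present in both libraries 16 were retained in both, and no barcode was a pericyte in both. In the germ cells, where the deletion acts, *Brca1* stood at 70.5 CPM (UMIs of the gene per 1000000 UMIs of the summed cells) in the control library and 43.5 CPM in the *Brca1* vKO library. In pericytes it was near the floor, with 2 UMIs in control pericytes and 9 in those of the *Brca1* vKO mouse, and the counts do not tell transcripts of a deleted allele from others.

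*Rgs5*, a regulator of G protein signalling that marks pericytes in many organs, had a median of 15.1 UMIs per 10,000 in control pericytes (highest 38.7) and 12.1 in *Brca1* vKO pericytes (highest 42.0). *Ndufa4l2*, a mitochondrial protein induced by low oxygen, had medians of 9.40 and 8.31, and *Cox4i2*, the lung-type and hypoxia-linked subunit of cytochrome c oxidase, 7.66 and 5.30. *Higd1b*, a small protein of the hypoxia-inducible domain family, was the sparsest, with medians of 4.57 and 3.61. These values chose the cells and are given as a description. All 4 transcripts were found together in 33 of the 43 control cells and 30 of the 50 *Brca1* vKO cells. Just 3 of them were found in 9 and 11 cells and 2 of them in 1 and 9 cells. Every member thus held at least 2 of the transcripts, but some reached the limit almost wholly through *Rgs5*. In 1 control cell *Rgs5* made up 38.7 of a sum of 39.8, and in 1 *Brca1* vKO cell 16.2 of 17.5. The control members nearest the limit had sums of 11.6, 11.7 and 14.4 and the nearest cells below it 9.61, 8.84 and 8.38. In the *Brca1* vKO library the nearest members had 10.1, 11.6 and 11.7, and the nearest cells below had 9.42, 9.27 and 8.88. Between a sum of 5 and the limit lay 4 control and 11 *Brca1* vKO cells.

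**Figure D1:**
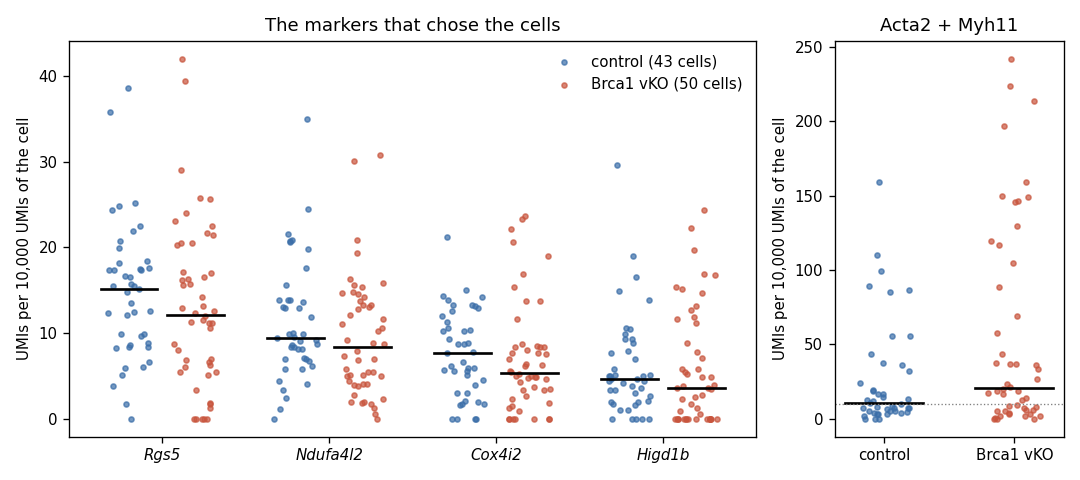
Each point is 1 pericyte, with the level of each of the 4 markers (left) and of *Acta2* plus *Myh11* (right) in UMIs per 10,000 UMIs of the cell; black bars are medians and the dotted line marks 10. The medians of the markers are near each other in both libraries, whereas *Acta2* plus *Myh11* runs from 0 to 159 in control and to 242 in *Brca1* vKO cells.

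The chosen cells also lay together on genes that the limits did not use. When each library was clustered without the genes of any limit, all 43 control pericytes fell into 1 cluster of 48 cells and all 50 *Brca1* vKO pericytes into 1 cluster of 68 cells. No cell chosen as another type was in either cluster. The remaining 5 and 18 cells had median marker sums of 8.84 and 6.64, and 1 and 2 of them reached a sum of 10 but were left out by other limits. The clusters rest on these same cells, so no test is drawn from them.

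Markers of other cells were low, except those of myoid cells. The sums below include genes that limited the pericytes or chose another type, so part of each difference was set by the choice of cells. Such genes were 3 of the endothelial, 4 of the Sertoli, 2 of the germ cell, 2 of the stromal and 2 of the myoid markers. The 11 endothelial markers outside the limits were all called lower in pericytes than in endothelial cells. The summed level of 14 endothelial markers was 291 and 269 CPM in pericytes (control and *Brca1* vKO), against 7906 and 7636 CPM in endothelial cells. That of 11 Sertoli markers was 275 and 423 CPM, against 10472 and 10576 CPM in Sertoli cells, and 10 germ cell markers gave 50.5 and 86.5 CPM. Of 10 macrophage markers, 8 were at 0 in control and 5 in *Brca1* vKO pericytes, with sums of 8.08 and 21.0 CPM, and Schwann and mesothelial markers summed to at most 7.01 CPM. The 8 stromal markers summed to 1459 CPM in control and 748 CPM in *Brca1* vKO pericytes, against 11777 and 11402 CPM in stromal cells, and no stromal marker tested was higher in pericytes than in stromal cells. The 5 myoid markers, which are smooth muscle genes, summed to 4874 and 9300 CPM, against 9999.5 and 9071 CPM in myoid cells.

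To find what sets pericytes apart, their summed UMIs were compared with those of peritubular myoid cells (639 control and 1618 *Brca1* vKO cells), interstitial stromal cells (716 and 1703 cells) and endothelial cells (22 and 18 cells). Those cells were chosen by *Acta2* plus *Myh11*, by *Dcn* plus *Pdgfra* and by *Pecam1*, *Cldn5* plus *Flt1*, and each had to hold under 3 UMIs per 10,000 of the pericyte markers. The test was edgeR's quasi-likelihood test on the 8 sums with the library as a block. Genes used to choose any cell type are left out of every count of calls between cell types, but not of the counts between genotypes. Of 14600 genes tested, 1287 (8.82%) were higher and 1582 (10.8%) lower in pericytes than in myoid cells at an adjusted p under 0.05. Against stromal cells 1522 (10.4%) were higher and 1610 (11.0%) lower, and against endothelial cells 1228 (8.41%) were higher and 1200 (8.22%) lower. In all 3 comparisons 456 genes (3.12%) were higher in pericytes and 152 (1.04%) lower. The median log2 fold change over all genes was -0.09 against myoid, -0.09 against stromal and 0.02 against endothelial cells. The endothelial sums lean on deep cells. In the control library 1 endothelial cell held 118913 of 454321 UMIs, and in the *Brca1* vKO library 1 held 61776 of 351252. The part of these cells in the endothelial levels and calls was not tested.

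The genes with the largest smallest difference over the 3 comparisons included *Fabp7*, *Olfr558*, *Tlr12*, *Rergl*, *Rgs4*, *Slc38a11*, *Stac*, *Tmc5*, *Trarg1*, *Spon1* and *Trpc6*. *Fabp7*, a fatty acid binding protein of brain and glia, was at 309 CPM in control and 133 CPM in *Brca1* vKO pericytes and had no UMI in myoid cells, so that its level was at least 978-fold and 798-fold higher in pericytes when myoid cells are put at a floor of 3 UMIs in each library. It was found in 24 of 43 and 18 of 50 pericytes, so a large part of the cells had no UMI of it. DESeq2 did not call *Fabp7* against endothelial cells (log2 fold change 8.99, DESeq2 adjusted p 0.192). *Trpc6*, a cation channel opened by diacylglycerol, was at 279 and 332 CPM in pericytes and at most 1.58 CPM in any of the other 3 types, 7.43 ± 0.22 (SE) above myoid cells on the log2 scale, with an edgeR adjusted p of 2.15e-10. *Spon1*, a secreted matrix protein, stood at 242 and 325 CPM against at most 1.89 CPM elsewhere. *Olfr558*, an olfactory receptor also known from vascular smooth muscle, stood at 90.9 and 63.1 CPM and was found in 17 and 12 pericytes. The amino acid transporter gene *Slc38a11* had 80.8 and 35.1 CPM, and *Tlr12*, *Tmc5*, *Stac* and *Trarg1* had between 10.1 and 30.3 CPM in pericytes. *Rergl*, a Ras-like gene of smooth muscle, differs from the others in that 5 control and 9 *Brca1* vKO cells held all of its UMIs, and 1 cell held 59.5% of them in the control library.

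The 6 most negative genes by the same rule were *Esrrg*, *Mcf2l*, *Gm16070*, *Arhgap28*, *5730522E02Rik* and *Nox4*. *Esrrg*, a nuclear receptor, had no UMI in pericytes of either library, against 20.2 and 26.9 CPM in myoid cells, a level at least 3.34-fold and 3.84-fold lower in pericytes when they are put at the floor of 3 UMIs. *Arhgap28*, a GTPase activating protein, had 1 UMI in control and none in *Brca1* vKO pericytes, against 238 and 222 CPM in endothelial cells. *Nox4*, an oxidase that makes hydrogen peroxide, likewise had 1 UMI and none, against 37.2 and 30.2 CPM in myoid cells.

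Known mural genes that did not choose the cells were higher in pericytes as a group. Of 18 such genes, 15 were higher and 0 lower than in myoid cells, 15 higher and 2 lower than in stromal cells, and 14 higher and 0 lower than in endothelial cells. Their median log2 fold changes were 2.86, 3.20 and 6.16, and the last became 3.95 with the 5 genes that had no UMI in endothelial cells put at their lower bound. *Pdgfrb*, the receptor through which endothelial PDGFB recruits mural cells, was at 459 and 516 CPM in pericytes, 25.4 and 25.9 CPM in myoid cells and 18.0 and 13.4 CPM in stromal cells. It was found in 42 of 43 and 47 of 50 pericytes and had no UMI in endothelial cells, so that its level was at least 69.5-fold and 60.5-fold higher in pericytes. The log2 fold change was 4.02 ± 0.15 against myoid and 4.84 ± 0.16 against stromal cells (edgeR adjusted p 1.50e-09 and 3.03e-10).

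*Notch3*, the Notch receptor of mural cells, was at 521 CPM in control and 283 CPM in *Brca1* vKO pericytes and at 26.8 and 23.8 CPM in myoid cells, a log2 fold change of 3.75 ± 0.17. *Cspg4*, which encodes the proteoglycan NG2, differed less, with 123 and 124 CPM in pericytes against 33.4 and 39.4 CPM in myoid and 35.8 and 33.2 CPM in stromal cells (log2 fold changes 1.54 ± 0.19 and 1.70 ± 0.19). *Vtn*, the adhesive protein vitronectin, was at 88.9 and 53.7 CPM against 0.211 and 0.223 CPM in myoid cells, but only 19 and 15 pericytes held a UMI of it. *Mcam*, an adhesion molecule of mural and endothelial cells, was 3.67 ± 0.27 above myoid cells on the log2 scale and stood at 154 and 187 CPM in pericytes beside 194 and 91.1 CPM in endothelial cells (log2 fold change 0.22, adjusted p 0.677). The 2 genes lower than in stromal cells were *Cd248*, which encodes endosialin, and the transcription factor *Ebf1*, with log2 fold changes of -0.93 ± 0.19 and -0.60 ± 0.13. Both were higher than in myoid cells, by 1.44 ± 0.24 and 1.31 ± 0.14, but the call for *Cd248* was lost without the members high in *Acta2* and *Myh11* (log2 fold change 0.91, edgeR adjusted p 0.151). *Anpep*, the aminopeptidase CD13 that marks pericytes of the brain, was at 6.06 and 7.01 CPM and passed the test in none of the 3 comparisons.

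**Figure D2:**
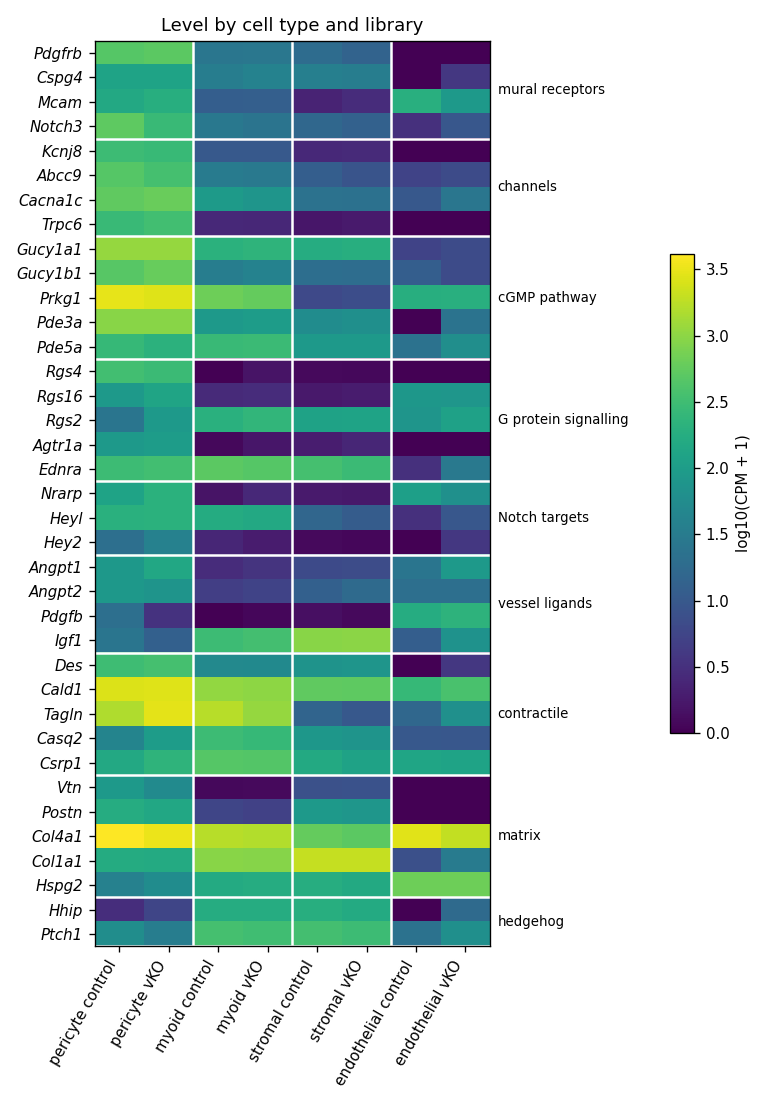
Level of 37 genes, as log10 of CPM plus 1, in the summed cells of 4 types from the control and the *Brca1* vKO library, with genes grouped by role. The rows from *Pdgfrb* to *Trpc6* are highest in the pericyte columns except *Mcam* in endothelial cells of the control library, and each pair of columns of 1 type is alike in most rows.

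The genes of vascular tone were mostly higher in pericytes. Of 21 tested genes for channels, cGMP signalling and G protein signalling, 15 were higher and 3 lower than in myoid cells, 18 higher and 1 lower than in stromal cells, and 13 higher and 0 lower than in endothelial cells. The medians were 2.59, 4.75 and 5.18, the last becoming 3.56 with 5 genes at their bound.

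*Kcnj8* and *Abcc9* encode the pore KIR6.1 and the regulatory subunit SUR2 of the vascular ATP-sensitive potassium channel, which links membrane potential to the energy state of the cell. *Kcnj8* was at 297 and 271 CPM in pericytes, 9.38 and 9.12 CPM in myoid cells, 1.62 and 1.67 CPM in stromal cells and 0 in endothelial cells. *Abcc9* was at 463 and 358 CPM in pericytes, 31.5 and 28.3 CPM in myoid cells, 11.2 and 7.61 CPM in stromal cells and 4.40 and 5.69 CPM in endothelial cells. Both subunits were thus high in pericytes of both libraries with no overlap with any of the other sums, with log2 fold changes against myoid cells of 4.72 ± 0.16 for *Kcnj8* and 3.55 ± 0.13 for *Abcc9* (edgeR adjusted p 6.71e-10 and 4.31e-10). *Kcnj8* had a UMI in 72.1% of control and 70% of *Brca1* vKO pericytes, and in 34.9% and 40% after every cell was thinned to 2000 UMIs. In Sertoli cells, which do not form vessels, the shares were 0.377% and 0.342% (0.0436% and 0.0883% thinned) at median depths of 17612 and 15074.5 UMIs.

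The nitric oxide receptor is soluble guanylate cyclase, a dimer of the products of *Gucy1a1* and *Gucy1b1*. *Gucy1a1* was at 1103 and 1094 CPM in pericytes against 201 and 226 CPM in myoid and 173 and 186 CPM in stromal cells (log2 fold changes 2.15 ± 0.11 and 2.47 ± 0.11). *Gucy1b1* was at 483 and 589 CPM against 33.3 and 38.9 CPM in myoid cells (3.67 ± 0.12). *Prkg1*, the kinase that cGMP activates, was at 3047 and 2732 CPM in pericytes, 662 and 576 CPM in myoid cells and only 5.27 and 6.22 CPM in stromal cells. Of the phosphodiesterases that end the signal, *Pde3a* was higher in pericytes than in myoid cells by 3.12 ± 0.16 on the log2 scale, whereas *Pde5a* stood at 267 and 210 CPM beside 282 and 293 CPM in myoid cells (adjusted p 0.0562). Receptor, kinase and *Pde3a* were thus higher in pericytes than in each other type, and the cGMP-specific *Pde5a* was not called against myoid cells.

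Calcium entry and hormone receptors followed. *Cacna1c*, the pore of the L-type calcium channel, was 2.59 ± 0.13 above myoid and 4.59 ± 0.15 above stromal cells on the log2 scale. *Agtr1a*, the angiotensin II receptor, was at 88.9 and 100 CPM in pericytes and at most 1.44 CPM in the other 3 types. *Ednra*, the endothelin receptor, was lower in pericytes than in myoid cells, at 299 and 329 CPM against 514 and 467 CPM. The regulators of G protein signalling, which shorten signals from such receptors, did not move together. *Rgs4* was at 331 and 294 CPM in pericytes and at most 0.556 CPM elsewhere (9.48 ± 0.37 above myoid cells), while *Rgs2* was lower in pericytes than in myoid cells, at 24.2 and 88.8 CPM against 198 and 237 CPM (-2.21 ± 0.26).

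*Rgs4* and *Kcnj8* each lie beside another pericyte gene. *Rgs5* (ENSMUSG00000026678) lies on the plus strand of chromosome 1 at chr1:169655501-169695813 and *Rgs4* (ENSMUSG00000038530) on the minus strand at chr1:169741477-169747642, 45663 bases further on (GRCm38). *Kcnj8* lies at chr6:142564837-142571614 and *Abcc9* at chr6:142587862-142702315, both on the minus strand and 16247 bases apart. No gene of the count tables lies between the members of either pair. The other markers lie singly, *Ndufa4l2* at chr10:127514967-127517154, *Cox4i2* at chr2:152754173-152765037 and *Higd1b* at chr11:102835849-102838040, all on the plus strand. The 250 bases before the RefSeq start of each of the 4 neighbouring genes are shown because these neighbours share a cell type. They are written 5′ to 3′ on the strand of the gene (RefSeq, GRCm38.p6), from chr1:169655251-169655500 for *Rgs5*, chr1:169747643-169747892 for *Rgs4*, chr6:142571615-142571864 for *Kcnj8* and chr6:142702275-142702524 for *Abcc9*. Capitals mark matches to TATAAA or TGGGAA on either strand.
Rgs5: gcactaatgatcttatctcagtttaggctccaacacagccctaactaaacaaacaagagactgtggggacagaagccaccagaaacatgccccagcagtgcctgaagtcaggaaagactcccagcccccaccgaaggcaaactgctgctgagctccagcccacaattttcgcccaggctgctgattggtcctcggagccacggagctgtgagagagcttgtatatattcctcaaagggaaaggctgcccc
Rgs4: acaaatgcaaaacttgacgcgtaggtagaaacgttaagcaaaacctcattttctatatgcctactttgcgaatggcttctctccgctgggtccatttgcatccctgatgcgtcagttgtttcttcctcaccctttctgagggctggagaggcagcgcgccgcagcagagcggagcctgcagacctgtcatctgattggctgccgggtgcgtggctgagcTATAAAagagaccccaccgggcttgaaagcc
Kcnj8: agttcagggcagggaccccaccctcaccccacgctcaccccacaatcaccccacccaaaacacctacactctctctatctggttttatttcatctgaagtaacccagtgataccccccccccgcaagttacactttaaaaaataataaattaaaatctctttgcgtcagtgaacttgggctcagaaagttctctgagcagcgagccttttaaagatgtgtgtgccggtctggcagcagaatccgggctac
Abcc9: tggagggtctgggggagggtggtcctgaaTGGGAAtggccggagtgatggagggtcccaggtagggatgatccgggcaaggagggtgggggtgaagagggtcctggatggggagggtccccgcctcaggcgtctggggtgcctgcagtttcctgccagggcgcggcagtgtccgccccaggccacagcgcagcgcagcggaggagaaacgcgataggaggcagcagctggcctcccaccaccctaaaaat

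4 short motifs were searched on both strands of these windows, the TATA box TATAAA, the core TGGGAA bound by the Notch effector RBPJ, the hypoxia response core ACGTG and the CArG box of serum response factor. *Rgs4* held a TATAAA that starts 31 bases before its start, and *Abcc9* held 1 TGGGAA, 221 bases before its start. *Rgs5* and *Kcnj8* held neither, and ACGTG and the CArG box were in none of the 4 windows. Of 32851 windows of the same length before RefSeq genes, 12.4% held TATAAA, 21.6% TGGGAA, 16.6% ACGTG and 1.47% a CArG box, so these matches are no more than a description of the letters.

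Notch genes were higher than in the other mesenchymal types. Of 13 tested, 7 were higher and 0 lower than in myoid cells, 9 higher and 0 lower than in stromal cells, and 4 higher and 4 lower than in endothelial cells, with medians of 1.95, 2.60 and 0.79. *Nrarp*, a feedback target of Notch, was at 125 and 203 CPM in pericytes, 0.527 and 1.61 CPM in myoid cells and 108 and 65.5 CPM in endothelial cells (6.88 ± 0.39 above myoid cells). *Hey2*, a repressor switched on by Notch, was at 20.2 and 37.4 CPM against 1.48 and 0.890 CPM in myoid cells (4.43 ± 0.57). *Heyl*, a repressor of the same family, was far above stromal cells (3.87 ± 0.19) but stood at 200 and 201 CPM in pericytes beside 165 and 150 CPM in myoid cells (adjusted p 0.632). The genes lower than in endothelial cells were *Dll4*, *Jag2*, *Notch1* and *Notch4*, ligands and receptors of the endothelium.

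Among 16 ligands that act on vessels, 7 were higher and 4 lower than in myoid cells, 6 and 5 against stromal cells, and 4 and 6 against endothelial cells (medians 0.94, 0.77 and -0.36). *Angpt1*, the mural ligand that steadies vessels through the receptor TIE2, was at 84.9 and 147 CPM in pericytes, 1.90 and 2.45 CPM in myoid cells and 5.44 and 5.94 CPM in stromal cells (5.52 ± 0.33 and 4.20 ± 0.30). Against endothelial cells its log2 fold change of 1.17 ± 0.35 passed narrowly (adjusted p 0.0332), and the call was lost without the members high in *Acta2* and *Myh11* (adjusted p 0.541), with no filter on low counts (0.0767) and with no library block (0.0999). *Angpt2*, a ligand of the same receptor, was 4.10 ± 0.28 above myoid and 2.01 ± 0.38 above endothelial cells. The growth factor *Igf1* was at 24.2 and 11.7 CPM in pericytes against 932 and 971 CPM in stromal cells (-5.83 ± 0.33), and *Pdgfd*, another ligand of PDGFRB, had log2 fold changes of -3.91 ± 0.64 against myoid, -4.54 ± 0.59 against stromal and -5.32 ± 0.61 against endothelial cells. *Pdgfb* itself was an endothelial transcript, with 20.2 and 2.34 CPM in pericytes against 172 and 216 CPM in endothelial cells, while its receptor *Pdgfrb* had no UMI there.

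Of 15 receptors of vessel cells, 2 were higher and 1 lower than in myoid cells, 3 and 2 against stromal cells, and 3 and 8 against endothelial cells. The median was -1.74 against endothelial cells, and against myoid and stromal cells it was 0.16 and -0.08, or 0.28 and 0.60 with 1 gene at its bound. The 8 lower ones, *Acvrl1*, *Cxcr4*, *Eng*, *Kdr*, *S1pr1*, *Tek*, *Tgfbr2* and *Tie1*, are receptors that endothelial cells carry. *Nrp1*, a co-receptor for VEGF and semaphorins, was above myoid cells by 1.69 ± 0.26 and stood at 441 CPM in control and 203 CPM in *Brca1* vKO pericytes.

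**Figure D3:**
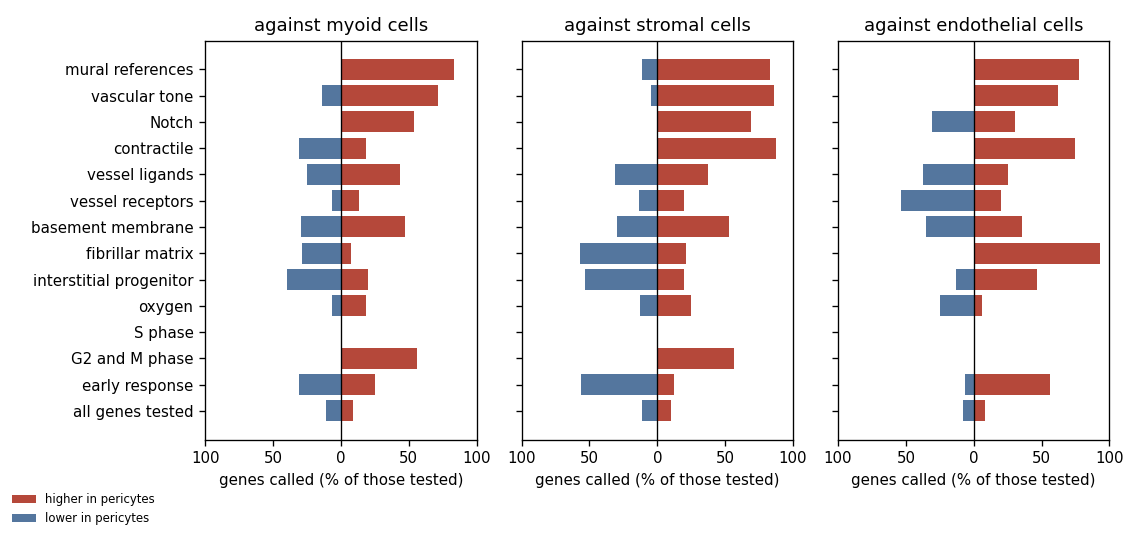
Share of the tested genes of each list, in percent, that were higher (red, to the right) or lower (blue, to the left) in pericytes at an edgeR adjusted p under 0.05, against each of the 3 other cell types, with all genes tested at the bottom. The mural references and vascular tone genes are mostly higher against each type, whereas the contractile genes are split against myoid cells and mostly higher against the other types.

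Contractile genes placed pericytes beside myoid cells and far from the rest. Of 16 tested, 3 were higher and 5 lower than in myoid cells (median -0.10), 14 higher and 0 lower than in stromal cells (2.47), and 12 higher and 0 lower than in endothelial cells (3.07). *Des*, the intermediate filament desmin, was at 307 and 355 CPM in pericytes against 48.9 and 51.9 CPM in myoid cells (2.50 ± 0.13), and *Cald1*, the actin-binding protein caldesmon, was 1.17 ± 0.12 above myoid cells. *Casq2*, a calcium store protein, and *Csrp1*, a LIM protein of smooth muscle, were lower, with log2 fold changes of -2.25 ± 0.23 and -1.50 ± 0.18. *Tagln*, the actin-binding protein SM22, did not pass the test (log2 fold change 0.46, adjusted p 0.31), and its levels were 1556 and 2996 CPM in pericytes and 1704 and 1123 CPM in myoid cells. *Acta2*, smooth muscle actin, which chose the myoid cells, stood at 2528 and 5159 CPM in pericytes and 7129 and 6783 CPM in myoid cells. The 18 endothelial cells of the *Brca1* vKO library held 433 CPM of *Acta2* against 8.80 CPM in the control ones, and its part in the comparison with endothelial cells was not tested.

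The contractile level varied widely from pericyte to pericyte. *Acta2* plus *Myh11* had a median of 10.4 UMIs per 10,000 in control pericytes (range 0 to 159) and 20.5 in *Brca1* vKO pericytes (0 to 242). A limit of 10, the one that chose myoid cells, put 22 of 43 control pericytes (51.2%, 95% Clopper-Pearson interval 35.5 to 66.7) and 32 of 50 *Brca1* vKO pericytes (64%, 49.2 to 77.1) on the high side. The limit cuts a range, with 19 control and 14 *Brca1* vKO cells between 5 and 20. Whether the cells form 1 type or more, and whether the high ones are vascular smooth muscle cells, was not tested. The median depth of control cells was 11932 UMIs on the high and 9670 on the low side, and that of *Brca1* vKO cells 8223.5 and 6029.5.

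The cells on either side of this limit differed in smooth muscle and potassium channel genes. *Tagln* was 16.6-fold higher in the high than in the low cells of the control mouse (95% interval from counting error only 11.5 to 24.9) and 18.9-fold higher in those of the *Brca1* vKO mouse (13.3 to 28.0). *Myl9*, a myosin light chain, was 3.36-fold and 3.92-fold higher. *Eln*, elastin, was 17.6-fold higher in the high cells of the *Brca1* vKO mouse, but in the control mouse 1 high cell held 81.0% of its UMIs, and the ratio there was 6.99 with and 0.848 (0.382 to 1.92) without that cell. Genes of the potassium channel went the other way. *Kcnj8* in the high cells was 0.296 of its level in the low cells among control pericytes (0.204 to 0.423) and 0.343 among *Brca1* vKO pericytes (0.232 to 0.503), and *Abcc9* was 0.292 (0.217 to 0.388) and 0.328 (0.234 to 0.458). *Pdgfrb*, at 0.484 and 0.509, and *Agtr1a*, at 0.243 and 0.307, were also lower in the high cells. For *Notch3* the ratios were 1.06 (0.819 to 1.38) and 0.915 (0.620 to 1.37), and for *Gucy1b1* the intervals also held 1. With the high cells left out of the comparison with myoid cells, 12 of 16 contractile genes were lower in pericytes and 2 higher (median -1.71), and *Tagln* had a log2 fold change of -3.34. The pericytes left were chosen for low *Acta2* plus *Myh11* and the myoid cells for high, so these values are a description only.

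**Figure D4:**
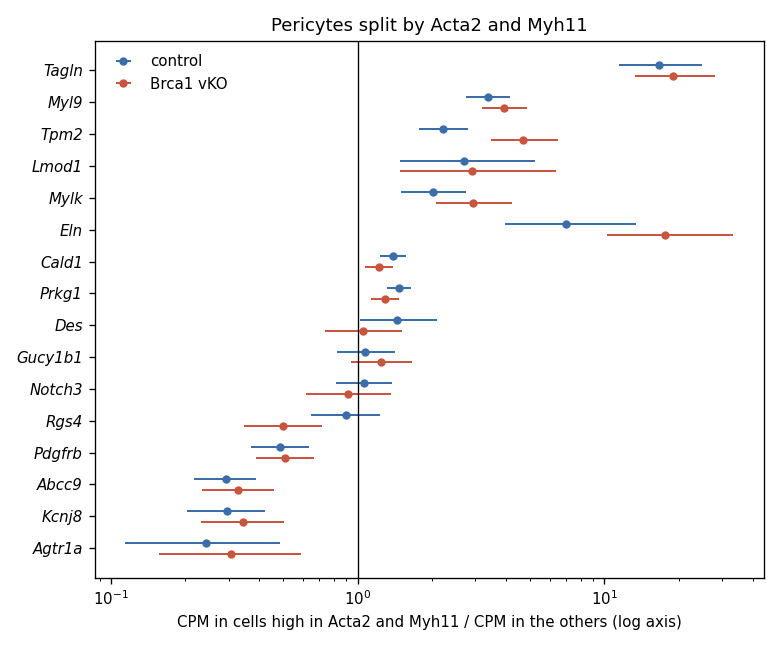
Ratio of each gene's CPM in pericytes with at least 10 UMIs of *Acta2* plus *Myh11* per 10,000 to its CPM in the other pericytes, for the control and the *Brca1* vKO library, on a log axis with 95% intervals from counting error only. *Tagln* and *Myl9* lie to the right of 1 and *Pdgfrb*, *Abcc9*, *Kcnj8* and *Agtr1a* to the left in both libraries, with *Notch3* and *Gucy1b1* at 1 within their intervals, while the control point of *Eln* rests on 1 cell (0.848 without it).

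Basement membrane genes were mixed. Of 17 tested, 8 were higher and 5 lower than in myoid cells, 9 and 5 against stromal cells, and 6 and 6 against endothelial cells, with medians of 0.47, 1.31 and -0.17. *Col4a1*, a chain of collagen IV, was at 4155 and 3299 CPM in pericytes, 1676 and 1608 CPM in myoid cells, 586 and 512 CPM in stromal cells and 2861 and 1925 CPM in endothelial cells, higher by 0.95 ± 0.13, 2.61 ± 0.13 and 0.67 ± 0.13. *Col18a1*, a collagen of vessel basement membranes, was 3.39 ± 0.22 above myoid cells on the log2 scale and had a log2 fold change of -2.11 ± 0.17 against endothelial cells. *Hspg2*, the proteoglycan perlecan, was lower in pericytes than in each type, with 38.4 and 56.1 CPM against 164 and 173 CPM in myoid cells (-2.07 ± 0.20). *Lama2*, a laminin chain of muscle, had a log2 fold change of -2.14 ± 0.41 against myoid cells with edgeR (adjusted p 0.0018), a call that DESeq2 did not make (adjusted p 0.39).

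Fibrillar matrix genes set pericytes apart from stromal cells. Of 14 tested, 1 was higher and 4 lower than in myoid cells, 3 higher and 8 lower than in stromal cells, and 13 higher and 0 lower than in endothelial cells (medians -0.47, -1.02 and 3.01, the last 2.66 with 3 genes at their bound). *Col1a1*, the main collagen of connective tissue, was at 170 and 164 CPM in pericytes against 1990 and 1974 CPM in stromal cells (-3.72 ± 0.17). *Postn*, the matrix protein periostin, was the 1 gene above myoid cells, at 172 and 147 CPM against 4.74 and 4.06 CPM (4.97 ± 0.20), and was found in 24 and 23 pericytes. With DESeq2, 2 fibrillar genes were higher and 4 lower than in stromal cells.

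Of 15 genes of interstitial progenitors and hedgehog signalling, 3 were higher and 6 lower than in myoid cells, 3 and 8 against stromal cells, and 7 and 2 against endothelial cells (medians -0.17, -0.98 and 2.31, the last 2.14 with 1 gene at its bound). Hedgehog ligand from Sertoli cells reaches the interstitium, and its receptor *Ptch1* and antagonist *Hhip* are targets of the pathway. *Hhip* was at 2.02 and 4.67 CPM in pericytes against 173 and 172 CPM in myoid and 183 and 161 CPM in stromal cells (-5.94 ± 0.48 and -5.86 ± 0.48). *Ptch1* was at 58.6 and 32.7 CPM against 359 and 324 CPM in myoid cells (-3.10 ± 0.25), so the targets were low in pericytes and alike in the other mesenchymal types. The genes higher than in each type were *Nr2f1*, a nuclear receptor, the filament gene *Nes* and the surface protein gene *Thy1*, with *Nr2f1* at 48.5 and 65.4 CPM and at most 3.67 CPM elsewhere.

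Of the 4 markers, 3 are relatives of widely expressed mitochondrial genes, and the markers themselves are low in the other types by choice. *Ndufa4*, the paralogue of *Ndufa4l2*, was lower in pericytes than in each type, at 220 and 325 CPM against 409 and 408 CPM in myoid, 379 and 395 CPM in stromal and 713 and 672 CPM in endothelial cells (-0.81 ± 0.15, -0.67 ± 0.15 and -1.34 ± 0.17). *Cox4i1*, the paralogue of *Cox4i2*, was at 829 and 837 CPM in pericytes and between 626 and 764 CPM in the others, and passed no test. *Higd1a*, the paralogue of *Higd1b*, was at 93.0 and 93.5 CPM and between 53.0 and 106 CPM in the others, called higher against stromal cells alone. Of 16 genes of oxygen sensing and its targets, 3 were higher and 1 lower than in myoid cells, 4 and 2 against stromal cells, and 1 and 4 against endothelial cells (medians 0.16, 0.19 and -0.30). *Epas1*, the hypoxia-inducible factor HIF2A of vessels, was at 275 and 227 CPM in pericytes, 3.69 and 5.17 CPM in myoid cells, 9.69 and 11.1 CPM in stromal cells and 368 and 493 CPM in endothelial cells (5.58 ± 0.21 above myoid cells). *Vegfa*, a target of these factors, was at 28.3 and 39.7 CPM in pericytes and passed in none of the comparisons.

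None of 16 S phase genes passed in any comparison (medians 0.20, 0.21 and -0.21). Of 16 G2 and M phase genes, 9 were higher than in myoid cells and 9 higher than in stromal cells, with none lower (medians 1.25 and 0.99), and none passed against endothelial cells. A few cells held most of these UMIs. Cells with at least 10 UMIs of *Mki67* plus *Top2a* per 10,000 numbered 3 of 43 and 5 of 50, and they held 76.9% and 89.7% of the UMIs of the list. *Cenpf*, a kinetochore protein, was at 234 and 322 CPM in pericytes against 49.8 and 71.6 CPM in myoid cells (1.96 ± 0.23), found in 10 and 8 cells. When the marker sum was required to reach 20, 1 gene of the list was higher than in myoid cells and 1 higher than in stromal cells, and the log2 fold change of *Cenpf* was 0.038 against myoid cells (edgeR adjusted p 0.96) and -0.34 against stromal cells.

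Early response and stress genes differed with the cell type compared. Of 16 tested, 4 were higher and 5 lower than in myoid cells, 2 and 9 against stromal cells, and 9 and 1 against endothelial cells (medians 0.10, -0.44 and 0.80). These genes are switched on within minutes of a stimulus. Against stromal cells the lower ones numbered 6 with DESeq2 and 4 with no library block.

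In the control library 0.847% of the retained cells were pericytes (exact binomial interval 0.614 to 1.14), and in the *Brca1* vKO library 0.574% (0.426 to 0.756), a ratio of 0.678 with an interval of 0.442 to 1.04 that holds 1. The interval left out 1 at a marker sum of at least 20 (0.521, 0.318 to 0.851) and without the members high in *Acta2* and *Myh11* (0.4995, 0.251 to 0.985), and with the cluster in place of the limits the ratio was 0.826 (0.562 to 1.22). The *Brca1* vKO testis had few germ cells (share ratio 0.160), which changes the share of every other type. Over cells without germ cells the shares were 1.05% and 0.592%, a ratio of 0.566 (0.369 to 0.871). Endothelial cells, the other vessel cells, had a ratio of 0.398 (0.201 to 0.778) on that base, whereas myoid cells had 1.23 and stromal cells 1.16. The intervals cover counting error only, and with 1 mouse per genotype a difference between mice or in dissociation cannot be told apart from the genotype.

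Between the genotypes, 6777 genes with at least 20 UMIs in the pericytes of both libraries together were compared on the log2 scale with a pseudocount of 10 CPM. In *Brca1* vKO pericytes 109 (1.61%) were at least 2-fold higher and 137 (2.02%) at least 2-fold lower, with a median log2 ratio of -0.0065. None of the 16 mural references with enough UMIs was past 2-fold in either direction (median -0.15). *Rgs5* was at 1552 and 1376 CPM, *Ndufa4l2* at 1025 and 848 CPM, *Cox4i2* at 740 and 612 CPM and *Higd1b* at 560 and 507 CPM, with the control value first. *Notch3* had the ratio 0.542 (95% counting interval 0.433 to 0.676), and it was 0.597 among the cells low in *Acta2* and *Myh11* and 0.515 among the high ones. *Kcnj8* stood at 0.912 (0.709 to 1.17) and *Pdgfrb* at 1.13 (0.931 to 1.36), intervals that hold 1.

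S phase and contractile genes leaned toward the *Brca1* vKO library. Of 16 S phase genes 5 were at least 2-fold higher in its summed pericytes (median 0.74), among them *Rrm2*, which makes nucleotides for replication. Cell by cell the difference was small at the median. The summed level of the list, in the unit of the marker sums, had medians of 3.35 in control and 3.80 in *Brca1* vKO pericytes. The highest cells had 26.4 and 46.5. Whether a few cells set the S phase ratios was not tested. Of 18 contractile genes, 4 were at least 2-fold higher in *Brca1* vKO pericytes and 0 lower (median 0.42), *Acta2*, *Actg2*, *Casq2* and *Cnn1*, and 16 of 18 ratios were above 1. *Acta2* was at 2528 CPM in control and 5159 CPM in *Brca1* vKO pericytes, a ratio of 2.04 (1.90 to 2.19), but 0.689 (0.427 to 1.09) among the cells low in *Acta2* and *Myh11*, which these genes themselves define. *Tagln* had the ratio 1.93 (1.76 to 2.11), and it was 1.52 (0.889 to 2.62) among the cells low in *Acta2* and *Myh11* and 1.74 (1.59 to 1.91) among the high ones. With a marker sum of at least 20 the ratio was 1.62 (1.49 to 1.77) for *Acta2* and 1.46 (1.30 to 1.64) for *Tagln*. That of *Myh11* was then 1.05 (0.876 to 1.27). High cells made up 51.2% of control and 64% of *Brca1* vKO pericytes, with intervals that overlap. All UMIs of *Cnn1* in the control library came from 1 cell. The summed Sertoli markers differed between the libraries too, at 275 CPM in control and 423 CPM in *Brca1* vKO pericytes. The same held for myoid cells (257 and 395 CPM), stromal cells (265 and 423 CPM) and endothelial cells (130 and 364 CPM). Germ cells had 135 and 306 CPM, but Leydig cells went the other way, at 752 and 687 CPM. The stromal markers stood at 1459 and 748 CPM in pericytes. Cell by cell, in the unit of the marker sums, their medians were 5.67 and 5.47, and the highest cells had 72.7 and 36.9. The part of the Sertoli and stromal markers in the ratios was not tested.

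By the naming rule the 5 largest ratios belonged to *Icam1*, *Cdkn1a*, *Eln*, *Txndc11* and *Hspb1*. *Icam1*, an adhesion molecule for leukocytes, was at 12.1 and 114 CPM, a ratio of 9.44 (4.04 to 27.0), but 1 *Brca1* vKO cell held 46.9% of its UMIs. *Cdkn1a*, the p21 inhibitor of the cell cycle that p53 induces, was at 18.2 and 110 CPM, a ratio of 6.04 (2.93 to 14.01), found in 7 of 43 and 16 of 50 cells with no *Brca1* vKO cell above 14.9% of the UMIs. In myoid and stromal cells its ratio was 1.30 and 1.14. *Eln* was at 309 and 1171 CPM, with 81.0% of the control UMIs in 1 cell, and *Txndc11*, a thioredoxin domain protein, at 74.8 and 290 CPM, a ratio of 3.88 (2.67 to 5.76). *Hspb1*, a small heat shock protein, was at 26.3 and 117 CPM and found in 11 and 25 cells, a ratio of 4.45 (2.38 to 8.92). *Cdkn1a* and *Hspb1* were thus spread over several cells. For *Icam1* the cell that held most UMIs was a *Brca1* vKO cell, and for *Eln* it was a control cell, which lowers the ratio. Without the cell of each library that held most of the gene's UMIs, the ratio was 7.57 (2.63 to 29.8) for *Icam1*. For *Eln* it was then 15.8 (10.8 to 23.8). With a marker sum of at least 20 the ratios of *Icam1*, *Cdkn1a*, *Eln*, *Txndc11* and *Hspb1* were 4.83, 3.42, 1.87, 1.66 (1.003 to 2.74) and 3.36. Among the cells low in *Acta2* and *Myh11*, where UMIs were few, *Icam1* had 6.65 (1.86 to 36.1) and *Cdkn1a* 7.84 (1.71 to 72.8). There *Eln* had 1.43 (0.609 to 3.34), *Txndc11* 1.58 (0.579 to 4.41) and *Hspb1* 1.66 (0.479 to 5.99), intervals that hold 1.

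The 5 smallest ratios belonged to *Hba-a1*, *Dcn*, *Ctnna2*, *Ptprd* and *Adam12*. *Hba-a1*, a haemoglobin chain of red cells, was at 127 and 23.4 CPM, a ratio of 0.184, and it was lower in the *Brca1* vKO library in myoid and stromal cells too (0.0422 and 0.0761). The 5 red cell markers together stood at 400 and 114 CPM in pericytes. *Dcn*, the stromal proteoglycan decorin, was at 162 and 37.4 CPM, and 1 control cell held 63.8% of its UMIs. Without that cell, the 1 member with at least 10 UMIs of *Dcn* plus *Pdgfra* per 10,000, the ratio was 0.599 (0.304 to 1.14). Of the UMIs of *Ctnna2*, 76.3% came from 1 control cell, of *Adam12* 62.2% and of *Ptprd* 34.9%. For *Ctnna2* the ratio was 1.01 (0.425 to 2.35) without the cell of each library that held most of its UMIs, and it turned to 3.20 (0.969 to 13.6) with mitochondrial UMIs of at most 5%, where that of *Ptprd* was 0.629 (0.372 to 1.05). Without the member high in *Dcn* and *Pdgfra* the ratio of *Adam12* was 0.639 (0.261 to 1.48).

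**Figure D5:**
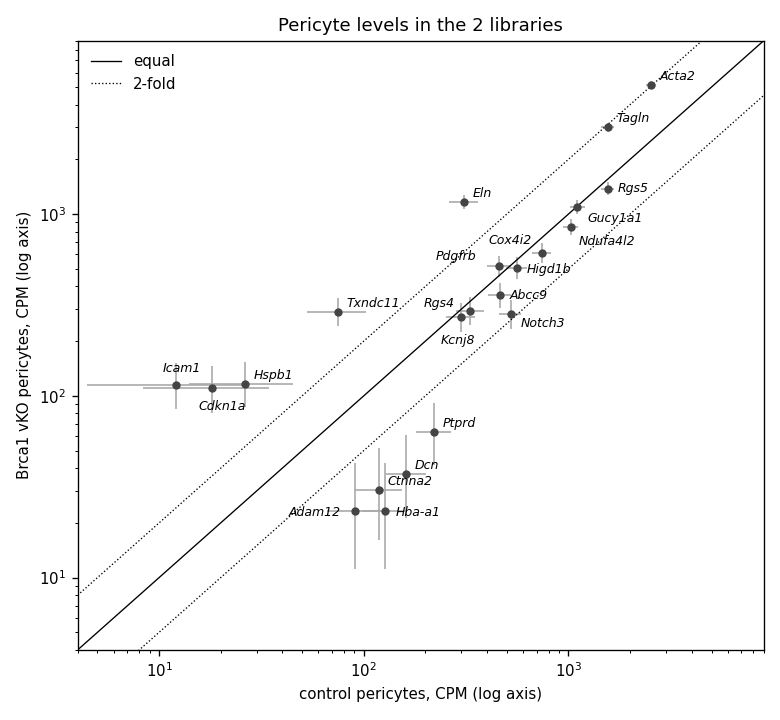
CPM of genes named in the text in the summed pericytes of the control (x axis) and the *Brca1* vKO library (y axis), both on log axes, with 95% intervals from counting error only; the solid line marks equal levels and the dotted lines a 2-fold difference. The pericyte markers and mural references lie between the dotted lines, and *Icam1*, *Cdkn1a*, *Hspb1*, *Txndc11* and *Eln* lie above them.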

How the data were processed

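The authors made droplet-based single-cell libraries of PD7 testes and aligned and counted them with Cell Ranger 6.0.2 on mm10 (per the labels; Seurat 4.3.0.1 and R 4.2.3 are also named). The deposited values are raw UMI counts per gene in called barcodes, with no normalization and before the authors' cell filters. Cells passing 750 genes, with mitochondrial UMIs up to 10%, were retained here. The members and the gene lists were chosen with earlier results of these data known. Cells of a type were summed per library and tested with edgeR 4.0.16 (quasi-likelihood, TMM, filterByExpr, library and cell type as terms, 8 sums, 3 residual degrees of freedom), Benjamini-Hochberg over 14600 genes, after a check on simulated data. Each SE, the value after ±, is the absolute log2 fold change over the square root of the test's F statistic. A type's replicates are the 2 libraries, which differ in genotype, so adjusted p values measure the spread between these libraries only. Comparators hold few pericyte markers by choice. The 20 genes used to choose cells were kept out of counts of calls between cell types, but not out of counts between genotypes. Named genes were the marker genes, examples from each list, the 12 highest and 6 lowest over the 3 comparisons, and the 5 largest ratios each way between libraries among genes with at least 50 UMIs. 1 gene that the rule named is not reported here. Genotypes have 1 library each and got exact 95% intervals for counting error only. Scrublet marked 0 of the 93 pericytes as doublets, and doublets were removed only as an alternative. Clustering used Scanpy 1.11.5 (2000 variable genes, 20 components, 20 neighbours, resolution 1). Coordinates are from GENCODE on GRCm38 (32158 of 32285 gene IDs matched), and promoter windows from RefSeq; *Ndufa4l2*, *Cox4i2* and *Higd1b* had no entry. Alternatives changed the limits on cells, the tool (DESeq2 1.42.0), scaling, filter, block and pseudocount.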

Additional observations from a re-analysis of the deposited data

Results flagged for a closer look

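For 6 genes the pericytes of the control library lay on one side of another cell type and those of the *Brca1* vKO library on the other, with counting intervals that exclude 1 in both. With 1 library per genotype the difference was not tested. The share of all genes that do so is not given, so the number 6 is no result by itself. The ratios are of plain CPM, and the intervals cover counting error only. The TMM scaling factors of the fit were 1.06 and 1.06 for pericytes (control and *Brca1* vKO) and 0.918 and 0.909 for myoid cells. Ratios against myoid cells scaled by them would be lower. *Tagln* was 0.913 of the myoid level in the control library (0.848 to 0.982) and 2.67 times it in the *Brca1* vKO library (2.52 to 2.82). *Myl9* and *Tpm1*, a myosin light chain and a tropomyosin, moved the same way against myoid cells, from 0.795 to 1.35 and from 0.800 to 1.26. *Dusp1*, an early response phosphatase, went from 0.534 to 1.92 against endothelial cells. *Mcm6*, a subunit of the replication helicase, went from 0.566 to 1.59 against stromal cells. *Slc2a1*, the glucose transporter GLUT1, went from 2.23 to 0.529 against stromal cells, and 1 control cell held 53.3% of its UMIs.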

How the results depend on the processing

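Over the alternatives, 135 called differences in 50 named genes lost the threshold in 17 instances and 1 changed sign, *Cenpf* against stromal cells at -0.34 with a marker sum of at least 20. *Tagln* against myoid cells, which was not called, was -3.34 without the members high in *Acta2* and *Myh11*, a choice made on smooth muscle genes. It was -0.37 without the *Brca1* vKO library. Without those members the control share was 0.414% and the *Brca1* vKO share 0.207%, and 660 genes were higher than in myoid cells, 771 than in stromal cells and 288 than in all 3 types. The median over all genes then moved to -0.31 and -0.32 against myoid and stromal cells. The *Brca1* vKO share was 0.390% at a marker sum of at least 20 and 0.781% with the cluster in place of the limits, an alternative added after the data were seen. Genes lower than in all 3 types numbered 89 with no filter and 98 with only the compared types in the fit. Between genotypes, the higher and lower counts were 226 and 288 with a pseudocount of 1 CPM, 14 and 10 with 50 CPM, 39 and 39 with at least 50 UMIs and 260 and 286 with at least 1 UMI, and 79 were lower with the cluster. Against stromal cells DESeq2 called 1766 higher and 1252 lower, and edgeR with RLE size factors 1653 and 1453, beside 1522 and 1610. Cell types were compared within each library, and without the library as a block 1291 and 1550 genes were called against myoid cells. Leaving out the cell that held most of a gene's UMIs was also added after the data were seen. Each genotype is 1 mouse, and 43 and 50 shallow cells limit genes under about 20 UMIs.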

Other observations

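Several listed genes without a place above also separated pericytes, by edgeR's adjusted p under 0.05. *Rgs16*, another regulator of G protein signalling, was at 88.9 and 131 CPM in pericytes (control and *Brca1* vKO) against 1.69 and 1.84 CPM in myoid cells and 81.4 and 79.7 CPM in endothelial cells, where it was not called. *P2ry14*, a receptor for UDP-glucose, was at 46.5 and 25.7 CPM and at most 5.69 CPM in the other 3 types. *Nes*, the intermediate filament nestin, was at 135 and 119 CPM against at most 28.7 CPM. *Pdgfa*, a ligand of PDGFRA, was at 58.6 and 93.5 CPM and higher than in each of the 3 types, while *Tcf21*, a transcription factor of interstitial progenitors, was at 194 and 86.5 CPM in pericytes and lower than in myoid (435 and 343 CPM) and stromal cells (384 and 341 CPM). *Foxs1*, a forkhead factor of mural cells, was above stromal and endothelial cells but stood at 131 and 126 CPM beside 95.2 and 86.2 CPM in myoid cells.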
